A study of Homo sapiens with 4 samples.

Results

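Asparagine synthetase (ASNS) and 9 stress regulators that are known to act downstream of the transcription factor ATF4 (TRIB3, DDIT3, ATF3, ATF5, CEBPB, CEBPG, NUPR1, SESN2 and DDIT4) were examined in human cells with and without THUMPD1, the adaptor protein for tRNA acetylation. These 10 genes were taken by symbol from a table of 18917 genes, in which each had 1 entry, and all 10 were among the 13128 genes with enough reads to be tested. The table holds read counts from 4 RNA-seq libraries of HEK-293T, an immortalized human embryonic kidney line that the sample labels call HEK293. The 2 WT libraries came from the unedited line. The 2 KO libraries came from cells in which the coding sequence of THUMPD1 was targeted with CRISPR-Cas9 and a pair of guides, followed by single-cell sorting, so that genotype and clone cannot be told apart. Both genotypes were grown in DMEM with 10% serum and 2 mM glutamine, and the labels name no stress treatment.

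The libraries held between 7875722 and 11362363 counts. The targeted gene, THUMPD1, had 46.4 and 42.6 CPM in the WT libraries against 6.13 and 5.45 CPM in the KO libraries (CPM are counts relative to a common library size, after scaling by edgeR's TMM method). Nothing in the labels says that the replicates came from separate cultures, so the p-values measure only the spread between these libraries, which may be technical. The embryonic kidney and neuronal genes PAX2, LHX1, NEFL, NEFM and VIM, used as markers of the line, were all detected, while the hepatocyte genes ALB, APOA2 and TTR had at most 3 counts in any library. The markers of the line summed to 553 to 569 CPM in WT and 434 to 466 CPM in KO libraries but moved in opposite directions. NEFM had 1416 and 1944 counts in WT against 305 and 245 in KO libraries, while NEFL had 462 and 667 against 850 and 850 and LHX1 had 6 and 6 against 37 and 27. Genes of chromosomes 16 and 22 were lower as a whole in KO cells, with a median log2 fold change of -0.44 and -0.42, whereas the medians of the other 21 chromosomes lay between -0.06 and 0.10. Of the 10 genes, NUPR1 alone lies on either of these chromosomes.

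In the integrated stress response, kinases that sense amino acid shortage, colliding ribosomes, misfolded protein or viral RNA phosphorylate eIF2α, which lowers general translation but favours translation of the ATF4 mRNA. ATF4 then binds DNA together with partners of the C/EBP family and turns on genes for amino acid supply, such as ASNS, and a further layer of regulators. That layer holds transcription factors that extend or limit the response (DDIT3, also called CHOP, with ATF3, ATF5, CEBPB, CEBPG and the small chromatin protein NUPR1), a feedback inhibitor of ATF4 (TRIB3), and inhibitors of the growth kinase mTORC1 (SESN2 and DDIT4).

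The 10 genes did not move as a block. DDIT4, ATF3, SESN2 and CEBPG rose in KO cells, by between 1.25-fold and 1.63-fold. NUPR1 and ATF5 fell, to 0.47 and 0.72 of the WT level. ASNS, TRIB3, DDIT3 and CEBPB did not pass the threshold (0.05 on the Benjamini-Hochberg adjusted p of edgeR's quasi-likelihood fit to all 13128 genes). In the same test 20.9% of all genes were called, 8.79% higher and 12.1% lower in KO. Beside the 4 risen and 2 fallen genes of 10, the median log2 fold change was 0.14 over the 10 genes and 0.01 over all genes tested. Both KO libraries lay above both WT libraries for 6 of the 10 genes (30.4% of all genes) and below them for 2 (30.0% of all genes). The order of the folds and the width of their intervals are shown in the plot of genotype differences.

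**Figure D1:**
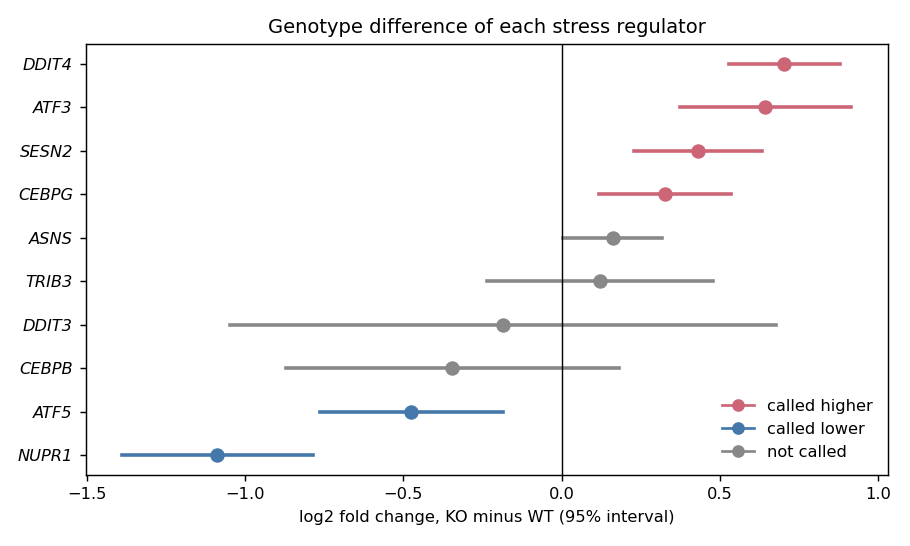
Log2 fold change of each gene in KO relative to WT cells (x axis; points) with its 95% interval from edgeR's quasi-likelihood fit (lines), for 2 libraries per genotype. DDIT4, ATF3, SESN2 and CEBPG lie to the right of 0 with their whole interval, NUPR1 and ATF5 to the left, the interval of ASNS begins at 0.01, and DDIT3 has the widest interval, from -1.05 to 0.68.

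The mTORC1 inhibitors were both higher in KO cells. DDIT4 (chr10:72273919-72276036 on GRCh38), also known as REDD1, releases the TSC complex to restrain mTORC1. It had 67.2 and 62.1 CPM in the WT libraries and 107 and 103 CPM in the KO libraries, from counts of 515, 683, 1234 and 1100. Every KO value was far above every WT value. DDIT4 thus had a log2 fold change of 0.70 (standard error 0.09, adjusted p = 1.25e-06), with a 95% interval from 1.44-fold to 1.84-fold. SESN2 (chr1:28259518-28282491) encodes Sestrin2, which binds leucine and holds back mTORC1 when leucine is scarce. Its level was 50.5 and 50.0 CPM in the WT libraries against 70.5 and 64.8 CPM in the KO libraries. The WT libraries were nearly equal and the KO libraries both lay higher. SESN2 had a log2 fold change of 0.43 (standard error 0.10, adjusted p = 0.00235). DDIT4 and SESN2 were called higher under each of 8 other scalings, filters, tools or blocks and with each library left out in turn.

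Among the transcription factors, ATF3 and CEBPG rose. ATF3 (chr1:212565334-212620777), a stress-induced bZIP factor that mostly represses its targets, had 22.7 and 24.1 CPM in WT and 37.4 and 35.9 CPM in KO libraries. The genotypes were well separated, and the replicates of each lay within 2 CPM of one another. ATF3 had a log2 fold change of 0.64 (standard error 0.13, adjusted p = 0.000875), and it was called under the same 8 alternatives and with each library left out. CEBPG (chr19:33373685-33382686), the C/EBP protein that pairs with ATF4 on the promoters of amino acid genes, had 51.1 and 46.8 CPM in WT and 62.9 and 59.4 CPM in KO libraries. Its KO libraries lay above its WT libraries by a smaller margin. CEBPG had a log2 fold change of 0.33 (standard error 0.10, adjusted p = 0.0224). The call of CEBPG was less firm than that of ATF3. DESeq2 gave CEBPG an adjusted p of 0.0926, the highest of the 8 alternatives, which ran down to 0.00349, and the call was also lost without WT replicate 2 (0.173) and without KO replicate 1 (0.155).

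The DNA element through which ATF4 and C/EBP proteins act on such genes has the core TGATGNAA. This core was searched on both strands of RefSeq's promoter windows, which begin upstream of a start site and end just past it (GRCh38.p14). The 9 genes other than NUPR1 had a window. The core was present for ATF3, ASNS and CEBPG, and in 4.46% of all 27305 genes with a window. These include genes that were called (ATF3, CEBPG) and one that was not (ASNS). The 3 matches are printed on the strand of the gene with 10 bases on each side and the core in capitals.
ATF3: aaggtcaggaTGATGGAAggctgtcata
ASNS: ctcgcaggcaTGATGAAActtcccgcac
CEBPG: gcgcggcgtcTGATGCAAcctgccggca
They lie at chr1:212565206-212565233 (plus strand), chr7:97872459-97872486 (minus strand) and chr19:33374061-33374088 (plus strand), with the core starting 191, 68 and 42 bases before a start annotated by RefSeq. The matches of ASNS and CEBPG lie inside the gene bodies that GENCODE 44 gives, and that of ATF3 lies upstream of its gene body. The palindrome TGACGTCA, to which CREB and ATF proteins bind, was not found in any window of the 9 genes and stood in the windows of 2.25% of all genes. A match describes letters only, and neither binding nor activity was measured.

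ATF5 and NUPR1 moved the other way. ATF5 (chr19:49928702-49933935), a bZIP factor linked to the mitochondrial branch of the stress response and translated under eIF2α phosphorylation like ATF4, had 30.1 and 31.7 CPM in WT and 20.7 and 23.9 CPM in KO libraries. Both KO values lay under both WT values. ATF5 had a log2 fold change of -0.47 (standard error 0.14, adjusted p = 0.0166). It was called lower in 7 of the 8 alternatives but not by DESeq2 (adjusted p = 0.0728, against a lowest value of 0.00881). Leaving out WT replicate 2 or KO replicate 1 also ended the call, with adjusted p values of 0.0780 and 0.178. In GENCODE 44 the gene bodies of NUP62 and IL4I1 overlap ATF5 on the opposite strand, and whether the counting used strand is not given in the sources used here. NUP62 had between 1725 and 2583 counts per library, several times those of ATF5 (231 to 348).

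NUPR1 (chr16:28532708-28539008), a small stress-induced protein that binds chromatin and other transcription regulators, fell most. It had 37.2 and 35.2 CPM in WT and 15.3 and 18.8 CPM in KO libraries. Both KO values lay far below both WT values. On the log2 scale the fold change was -1.09 (standard error 0.15, adjusted p = 5.90e-06), with a 95% interval from 0.382 to 0.580 of the WT level. NUPR1 was called lower under all 8 alternatives and with each library left out, from -1.24 to -0.94. Its region was lower as well. Of 84 other tested genes whose start lies within 3 Mb of that of NUPR1, 80 had a log2 fold change below 0, 51 were called lower and 0 higher, and the median was -0.52. NUPR1 was lower than all but 8 of them. Nearest to it, 5 tested genes on each side lay between -0.68 and -0.13. NUPR1 was below all 10 of these neighbours, of which 4 were called lower, and 42 (7.34%) of the other tested genes of chromosome 16 lay lower still. Relative to the median of the chromosome its log2 fold change was -0.65. What part the shift of the chromosome has in the fall of NUPR1 was not tested.

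ASNS (chr7:97851677-97872542) makes asparagine from aspartate and glutamine and is a standard readout of ATF4. It had 140 and 166 CPM in WT and 170 and 173 CPM in KO libraries. The KO libraries were nearly equal, and WT replicate 2 lay closer to them than to WT replicate 1. Its log2 fold change was 0.16 (standard error 0.08, adjusted p = 0.136). The 95% interval ran from 0.01 to 0.32 on the log2 scale, so that a rise of more than 1.25-fold lay outside it. The call of ASNS as higher was gained when library size replaced TMM (adjusted p = 0.0135), which moves the median of all genes to 0.09, and without WT replicate 2 (adjusted p = 0.00937). Over the 8 alternatives the adjusted p ran up to 0.299, and without WT replicate 1 the log2 fold change was 0.05. GENCODE 44 lists 4 pseudogenes of ASNS, none of which has an entry of its own in the table, so reads from them could count as ASNS.

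TRIB3 (chr20:362835-397559), a pseudokinase that binds ATF4 and dampens it, had 15.7 and 15.3 CPM in WT and 17.1 and 16.5 CPM in KO libraries. The 4 values lay within 2 CPM, with the KO libraries just above the WT libraries. Its log2 fold change was 0.12 (standard error 0.17, adjusted p = 0.667), with a 95% interval from 0.850-fold to 1.39-fold. TRIB3 was not called under any of the 8 alternatives or with a library left out.

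DDIT3 (chr12:57516588-57521737) and CEBPB (chr20:50190830-50192668) varied more between replicates than between genotypes. DDIT3, the CHOP factor that promotes cell death under lasting stress, had only 49 and 29 reads in the WT libraries, and 35 and 50 in the KO libraries. These counts carry exact Poisson intervals of 36.3 to 64.8, 19.4 to 41.6, 24.4 to 48.7 and 37.1 to 65.9, which cover counting error only. On the CPM scale the values were 6.39 and 2.64 in WT and 3.02 and 4.69 in KO libraries, so that both the highest and the lowest came from WT cells. DDIT3 had a log2 fold change of -0.19 (standard error 0.42, adjusted p = 0.797). Its 95% interval ran from -1.05 to 0.68. The sign was positive without WT replicate 1 (0.54) and without KO replicate 1 (0.10). DDIT3 is overlapped on the opposite strand by MARS1, the methionyl-tRNA synthetase gene, which had between 1345 and 2423 counts, and by MBD6.

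CEBPB, a C/EBP factor that pairs with ATF4 and DDIT3, had 11.6 and 12.6 CPM in WT and 6.39 and 12.9 CPM in KO libraries. KO replicate 2 lay at the WT level and KO replicate 1 far below it, a log2 ratio of 1.01 between replicates of one genotype. CEBPB had a log2 fold change of -0.35 (standard error 0.26, adjusted p = 0.366). KO replicate 1 decided its value, since without it the log2 fold change was 0.082, and without KO replicate 2 it was -0.93 and was called (adjusted p = 0.0298). Over the 8 other scalings, filters, tools or blocks the adjusted p of CEBPB ran from 0.248 to 0.587.

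**Figure D2:**
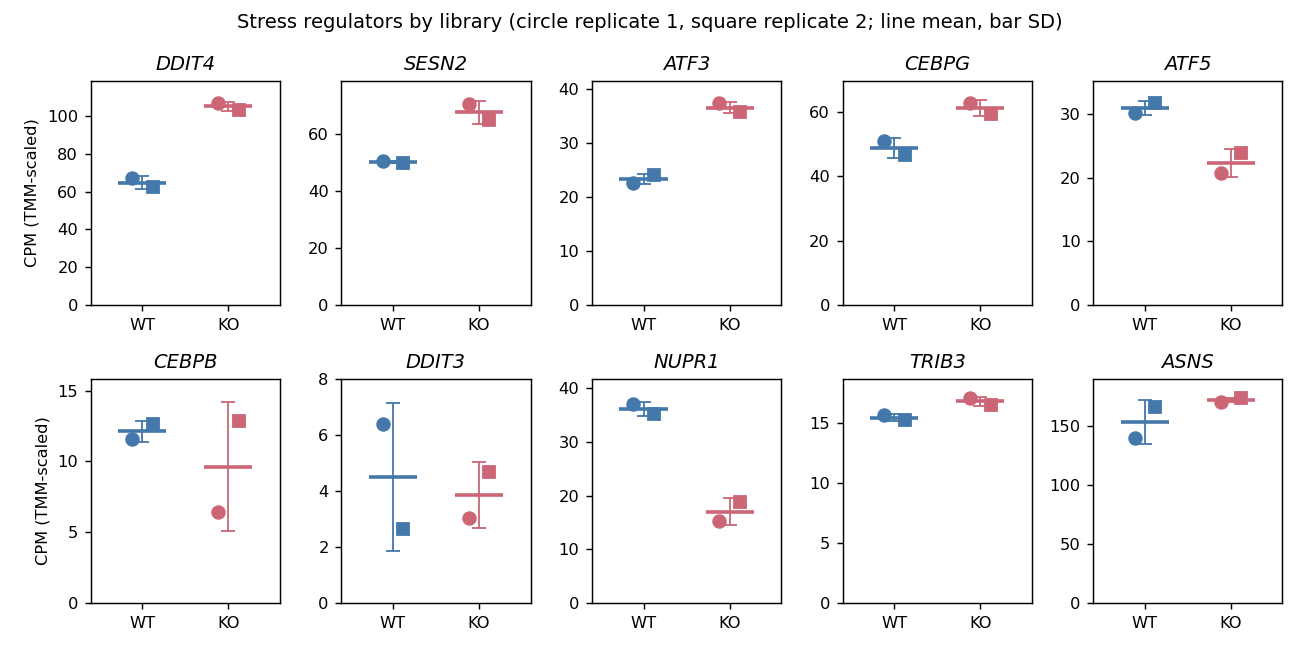
Level of each gene in the 4 libraries in CPM on TMM-scaled library sizes (y axis, from 0), with WT in blue and KO in red, replicate 1 as a circle and replicate 2 as a square, the mean as a line and the SD over 2 libraries as a bar. DDIT4, SESN2, ATF3 and CEBPG are higher in both KO libraries, ATF5 and NUPR1 are lower, and the bars of DDIT3, CEBPB and ASNS overlap.

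For 3 of the 10 genes, DDIT3, CEBPB and ASNS, the larger of the log2 ratios between replicates was larger than the log2 fold change between genotypes. For DDIT3 that ratio was -1.28 in WT, for CEBPB 1.01 in KO and for ASNS 0.25 in WT. The other genes had replicate ratios of at most 0.30 in size, the highest being that of NUPR1 in KO. The median size of the ratio over the 10 genes was 0.10 in WT and 0.10 in KO, against 0.14 and 0.13 over all genes tested.

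**Figure D3:**
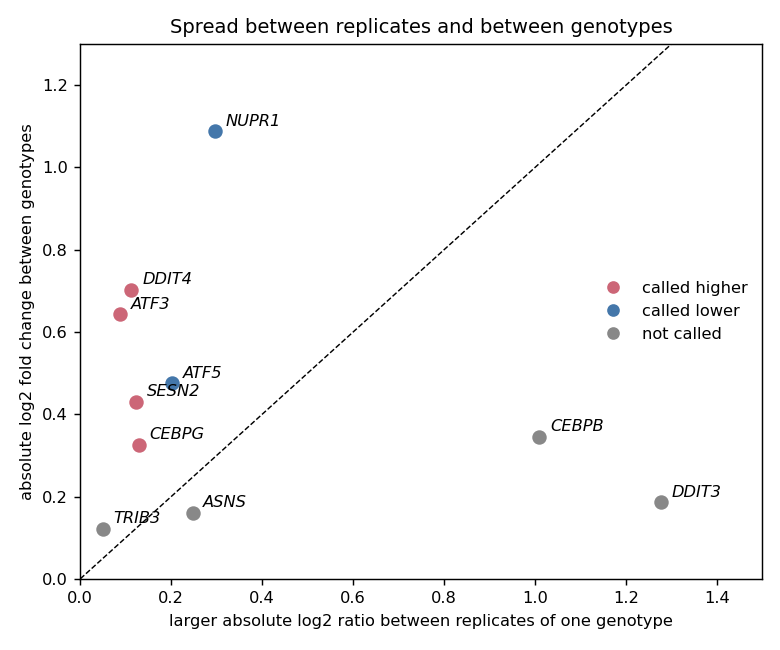
Size of the log2 fold change between genotypes (y axis) against the larger absolute log2 ratio between the 2 replicates of a genotype (x axis) for each gene. The dashed line marks equality: DDIT3, CEBPB and ASNS lie below it, and all 6 called genes lie above it.

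The genes also differed in abundance, which was compared per length of the GENCODE 44 canonical transcript. In WT cells ASNS had 64.1 ± 7.73 CPM per kb and DDIT4 37.1 ± 2.03 (SD, n = 2). ATF5 (15.4 ± 0.54), SESN2 (14.5 ± 0.11), CEBPG (13.1 ± 0.83) and ATF3 (12.1 ± 0.52) formed a middle group on the same scale of CPM per kb, in which the neighbours CEBPG and ATF3 differed by less than the sum of their SD. NUPR1, CEBPB and TRIB3 lay between 6.57 and 6.84 CPM per kb, also within the sum of their SD. DDIT3 had the lowest mean, but its libraries lay at 7.08 and 2.92 CPM per kb, on both sides of those 3 genes. In KO cells the middle group was reordered: SESN2 (19.5 ± 1.16) and ATF3 (18.9 ± 0.56) stood at the top of it and ATF5 (11.1 ± 1.10) at its foot, with CEBPG (16.4 ± 0.65) between them. NUPR1 had the lowest mean of all in KO cells with 3.22 ± 0.47 CPM per kb, within the sum of the SD of DDIT3 (4.27 ± 1.31). The lengths are those of 1 transcript, and for NUPR1 that transcript of 5291 bases is long for the gene's small protein, so its place in this order is uncertain.

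The upstream arm of the response was examined as a list of 10 genes, all tested. EIF2AK4, the kinase GCN2 that senses uncharged tRNA and stalled ribosomes, rose from 59.2 ± 0.51 to 74.3 ± 9.10 CPM, a log2 fold change of 0.33 (adjusted p = 0.0174). EIF2AK2, the kinase PKR that senses viral RNA, rose from 71.2 ± 3.15 to 85.5 ± 3.36 CPM, or by 0.27 on the log2 scale (adjusted p = 0.0294). The level of ATF4 itself rose from 837 ± 2.67 to 937 ± 2.86 CPM (by 0.16 on the log2 scale, adjusted p = 0.0416). With any library left out its log2 fold change stayed between 0.16 and 0.17, but the call was lost. It was also lost when TMM factors were taken from genes off chromosomes 16 and 22 (adjusted p = 0.0754). The lowest adjusted p of ATF4 among the 8 alternatives was 0.00167. ATF4 lies on chromosome 22, at 0.58 above the median log2 fold change of that chromosome (-0.42), and 7 of its 10 nearest tested genes were called lower and 0 higher. Of the 10 genes of the list, 3 were called higher and 0 lower, beside 8.79% and 12.1% of all genes tested. The kinases EIF2AK1 and EIF2AK3, the GCN2 regulators GCN1 and IMPACT, eIF2α (EIF2S1) and the phosphatase subunits PPP1R15A and PPP1R15B did not pass the threshold. The median of the list was 0.01, the same as that of all genes.

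Of 30 other tested genes that ATF4 is known to regulate, 8 rose and 2 fell in KO cells (8.79% and 12.1% of all genes tested), and their median log2 fold change was 0.12, against 0.01 over all genes. The largest rises by fold were those of CHAC1, which degrades glutathione, at 1.15 and SLC7A11, the cystine transporter, at 0.98 (adjusted p = 0.0451 and 1.55e-08). The WT libraries of CHAC1 held 9 and 45 counts, so its fold is poorly fixed. The bZIP factor JDP2 was at 0.60 and the arginine transporter SLC7A1 at 0.35 (adjusted p = 0.0336 and 0.000329). JDP2 differed widely between the WT libraries, at 9.78 and 16.8 CPM, against 22.4 and 18.8 CPM in the KO libraries. STC2 and the tRNA synthetase GARS1 were also called higher, at 0.34 and 0.33 (adjusted p = 0.000352 and 0.000445). PYCR1, an enzyme of proline synthesis, fell by 0.47 and the alanyl-tRNA synthetase AARS1 by 0.34 on the log2 scale (adjusted p = 0.000299 and 0.000846). AARS1 lies on chromosome 16, whose genes had a median log2 fold change of -0.44. What part the shift of chromosomes 16 and 22 has in the folds of this list was not tested. Enzymes of serine synthesis and the folate steps fed by it were split. PSPH rose by 0.33 and MTHFD2 by 0.32 on the log2 scale (adjusted p = 0.0424 and 0.00212), while PSAT1 (-0.07), PHGDH (-0.09), SHMT2 (0.01) and ALDH1L2 (-0.08) were not called.

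Of 11 genes linked to DDIT3 in the unfolded protein response, 1 rose and 3 fell (8.79% and 12.1% of all genes tested), with a median of -0.10. PMAIP1, the cell death protein NOXA, rose from 65.5 ± 1.57 to 111 ± 5.84 CPM (log2 fold change 0.77, adjusted p = 2.72e-07). BBC3, the cell death protein PUMA, was lower at -0.44 (adjusted p = 0.0493), GADD45A at -0.34 (adjusted p = 0.0457) and the ER chaperone HSPA5 at -0.24 (adjusted p = 0.00582).

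Paralogues of the 10 genes were not all at the level of their relatives. SESN3, a sestrin like SESN2, rose from 55.3 ± 2.53 to 78.9 ± 0.0075 CPM (log2 fold change 0.51, adjusted p = 0.000241), while SESN1 was at 0.23 and was not called. TRIB2 had 38 and 39 reads in the WT libraries against 178 and 154 in the KO libraries, a log2 fold change of 1.84 (adjusted p = 7.19e-06), whereas TRIB1 was at -0.09 and TRIB3, above, at 0.12, neither called. Of the C/EBP factors, CEBPA (-0.19) and CEBPD (0.15) were not called, and CEBPE was below the filter. ASNSD1, a relative of ASNS, rose by 0.42 (adjusted p = 0.00156). Among bZIP relatives of ATF3 and ATF5, JDP2 was called higher, BATF3 lower at -1.02 (adjusted p = 0.000613), and ATF1, ATF2, ATF6, ATF6B, ATF7, FOSL1 and FOSL2 were not called. Of 21 paralogues listed, 16 could be tested, with 4 higher, 1 lower and a median of 0.15. Over the 4 lists together, which share JDP2 and PPP1R15A, 15 of 65 genes were called higher and 6 lower, beside 8.79% and 12.1% of all genes tested. With library size alone these numbers became 21 and 3, and for all genes 2081 higher and 1158 lower in place of 1154 and 1594.

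The surroundings of the other called genes were examined in the same way. The 5 tested genes on each side of DDIT4 had a median log2 fold change of 0.08, those of ATF3 of -0.05, of SESN2 of -0.15, of CEBPG of -0.05 and of ATF5 of -0.06. Of these neighbours 3 were called higher beside DDIT4 and 3 lower beside SESN2, 1 each way beside ATF3, and none beside CEBPG or ATF5. Over all genes tested, 8.79% were called higher and 12.1% lower. The lower neighbour of ATF3 was BATF3, the same gene that is given above as a paralogue. The neighbours of ASNS had a median of 0.17, close to ASNS itself (0.16), and 2 of the 10 were called higher. DDIT4 lay at 0.65, ATF3 at 0.62, SESN2 at 0.41, CEBPG at 0.37 and ATF5 at -0.43 relative to the median of their own chromosome.

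The plot of all settings shows how far each gene moved with the scaling, the filter, the tool and the libraries. For DDIT4, ATF3, SESN2 and NUPR1 the call held throughout. The number of the 10 genes called was 6 in most alternatives, 7 with library size alone and 4 with DESeq2, and it lay between 4 and 7 with a library left out.

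**Figure D4:**
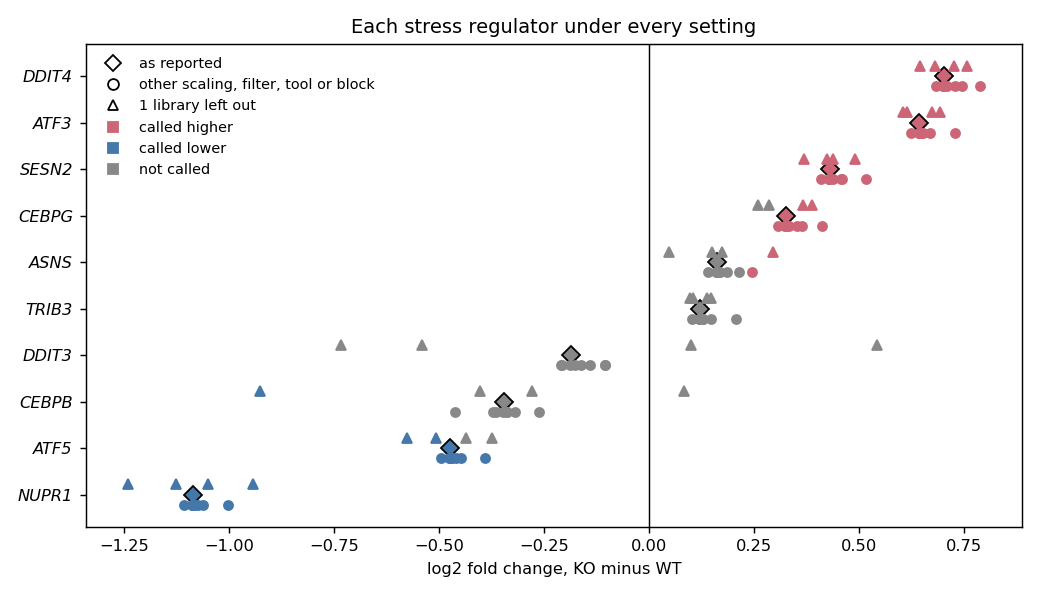
Log2 fold change of each gene in KO relative to WT cells (x axis) as reported (diamonds), under 8 other scalings, filters, tools or blocks (circles) and with 1 library left out (triangles), red where called higher, blue where called lower and grey where not called. The triangles of DDIT3 and CEBPB fall on both sides of 0, and those of DDIT4, ATF3, SESN2 and NUPR1 stay on one side and are all called.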

How the data were processed

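RNA was sequenced from WT and THUMPD1 KO cells in 2 libraries per genotype, grouped by sample title. The authors deposited a table of read counts, unnormalized integers for each symbol in each library. The labels name a Zymo-Seq RiboFree total RNA kit and the build hg19. The study's RNA-seq methods name another kit, STAR and RSEM on GRCh38, and 3 samples per genotype, so which steps made these counts is not given in the sources used here. The authors also deposited their own KO and WT comparison (a mean, a log2 fold change with its error and p-values), which was not used here.

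The quasi-likelihood test of edgeR 4.0.16 (R 4.3.3) compared genotypes after TMM scaling, with no covariate. It covered the 13128 genes that reached 1 CPM in 2 or more libraries, and p-values were adjusted by Benjamini-Hochberg (threshold 0.05). Standard errors are the log2 fold change divided by the root of the F statistic, and 95% intervals use the t distribution of the fit. DESeq2 1.42.0 and limma 3.58.1 served as alternatives. A mean ± SD is over 2 libraries. Poisson intervals and the depth cover counting error only, since the reads carry no molecular identifiers. Positions on GRCh38 come from GENCODE 44, matched by symbol or RefSeq synonym, since no hg19 reference was used here, and 13016 of the tested genes had one. Summaries used pandas 2.3.3 on Python 3.11.15 with SciPy 1.17.1, and plots used matplotlib 3.10.9.

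The 10 genes and the gene lists were chosen with earlier results of these data known. The genes named are the 10, THUMPD1, ATF4 and called genes of the lists, at most 4 rises and 4 falls each. The list of other ATF4-regulated genes is an exception, since all 8 of its rises are named. Uncalled genes of the lists and genes overlapping a member were named after their values were seen.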

Additional observations from a re-analysis of the deposited data

How the results depend on the processing

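The alternatives were library size alone, upper quartile, quantile normalization with limma-voom, DESeq2, no filter, at least 10 counts in every library, the replicate number as a block, a threshold of 0.01, and each library left out in turn. TMM factors from genes off chromosomes 16 and 22 were chosen only after seeing the data. With a library left out, the gene filter was kept and the lone library of its genotype was taken to vary like the others.

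All tested genes called, 2748, became 1755 with DESeq2 and 1594 at 0.01, and lay between 1620 and 2591 with a library left out, the lowest being without KO replicate 1. Of the genes of the 4 lists, 21 were called, 13 at 0.01 and between 13 and 21 with a library left out, the lowest again without KO replicate 1. The stricter threshold accounts for the counts at 0.01, and for the others the cause was not tested. At 0.01, 4 of the 10 stress regulators were called (ATF5 and CEBPG were not). The log2 fold change of DDIT3 lay between -0.73 and 0.54 and that of CEBPB between -0.93 and 0.082 with a library left out.

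The labels give both genotypes replicate numbers 1 and 2 but do not say that a number marks a shared day or culture, and the log2 ratios of replicate 2 to replicate 1 in WT and in KO correlated at 0.03 over 12300 genes. With the replicate number as a block, 3222 genes, 6 of the 10 stress regulators and 25 list genes were called, and no call among the 10 changed. At these depths 1 count was worth between 0.086 and 0.130 CPM.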
